A study of Mus musculus with 8 samples.

Results

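Long intergenic noncoding RNAs (lincRNAs) are transcripts of stand-alone loci that are processed like messenger RNA but have no annotated protein. The lincRNAs described here were those that were well expressed in inguinal fat (iWAT), a subcutaneous pad of white adipose tissue. They were every gene with the lincRNA biotype in the deposited table whose mean over the 8 libraries was at least 2 FPKM (fragments per kilobase of gene and per unit of library size, as the authors set it), without the imprinted RNAs H19 and Meg3. This gave 160 of 5559 lincRNAs in a table of 54532 genes. The libraries came from mice with a knockout of the zinc-finger transcription factor KLF10 in adipocytes (KLF10AKO, n = 4), and from wild-type mice (WT, n = 4). All mice were male and fed a high-fat diet (HFD). The labels name no Cre driver, no age and no animal for a library. The p-values below therefore refer to variation among libraries, which may be technical.

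LincRNAs act in several ways. Some are precursors from which microRNAs or small nucleolar RNAs (snoRNAs) are cut, some build nuclear bodies, some act on neighbouring genes, and for most no function is known. Many are made in few cell types, and a whole fat pad holds adipocytes, vessels, fibroblasts and immune cells, including those of a lymph node. In such bulk samples fewer cells of a type and less RNA per cell cannot be told apart. Libraries of this kind, selected for poly(A) tails, hold lincRNAs with such tails and not the mature small RNAs cut from them.

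The microRNAs carried by host RNAs in this set are shown first, because these hosts include Mir142hg, the lincRNA with the highest mean. Sequences are RefSeq mature microRNAs on build GRCm38.p6, written 5′ to 3′, with the seed, bases 2 to 8, in capitals. Mir142hg spans both arms of miR-142a, a microRNA of blood cells.
miR-142a-5p: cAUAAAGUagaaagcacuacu
miR-142a-3p: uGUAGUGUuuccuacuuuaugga
Mir155hg spans miR-155, which is induced in activated lymphocytes and macrophages.
miR-155-5p: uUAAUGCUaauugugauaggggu
Mir17hg spans the miR-17 cluster, which promotes growth and survival of lymphocytes. Its guide arms fall into 4 seeds: miR-17-5p and miR-20a-5p share AAAGUGC, miR-19a-3p and miR-19b-3p share GUGCAAA, and miR-18a-5p and miR-92a-3p have seeds of their own.
miR-17-5p: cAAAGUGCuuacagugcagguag
miR-20a-5p: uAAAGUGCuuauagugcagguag
miR-18a-5p: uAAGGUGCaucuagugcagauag
miR-19a-3p: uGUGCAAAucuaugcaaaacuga
miR-19b-3p: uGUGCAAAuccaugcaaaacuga
miR-92a-3p: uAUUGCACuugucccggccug
A pair of hosts that did not pass the test is shown beside them. E130102H24Rik spans miR-101a and 6720427I07Rik spans let-7d, a microRNA linked to cell differentiation.
miR-101a-3p: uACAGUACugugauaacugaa
let-7d-5p: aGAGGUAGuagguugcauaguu

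Whole reads recovered from the table came to 15537863 to 17499132 per library. The lincRNAs described here took 0.492% to 0.517% of them in KLF10AKO and 0.421% to 0.506% in WT. Klf10 itself, the targeted gene, had a mean of 9.60 ± 0.157 FPKM in KLF10AKO and 18.2 ± 2.09 FPKM in WT (SD, n = 4 each). Its log2 difference of -0.88 turned to 0.75 when each library was scaled to the adipocyte markers, which fell by a median of 1.67. The cell content also differed between the libraries. All 15 adipocyte markers measured were lower in KLF10AKO, with a summed level of 5418 to 6816 FPKM in KLF10AKO and 16216 to 18292 FPKM in WT, and Trarg1 is not in the table. All 15 B cell markers were higher, summing to 2336 to 3327 FPKM in KLF10AKO and 133 to 263 FPKM in WT. All 15 T cell markers were higher too, summing to 477 to 696 FPKM in KLF10AKO and 6.82 to 8.32 FPKM in WT. Skeletal muscle markers summed to 6346, 4803, 11211 and 66.5 FPKM in KLF10AKO replicates 1 to 4 and to 175 to 231 FPKM in WT, so replicate 4 was the KLF10AKO library with by far the smallest sum. Single muscle genes were still above WT there, such as Mylpf, a myosin light chain of fast fibres, with 7.68 FPKM in KLF10AKO replicate 4 and 0.816 to 1.28 FPKM in WT. The 12 trophoblast genes listed summed to at most 0.143 FPKM in KLF10AKO, where 10 of them were listed at 0, and to 29.8 to 72.7 FPKM in WT. The adipocyte markers were lowest in KLF10AKO replicate 4 for 14 of 15 genes, and all B and T cell markers were highest in that library and lowest in replicate 3.

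Well-expressed lincRNAs were spread over a wide range of levels. Their mean over the 8 libraries ran from 2.01 to 163 FPKM with a median of 3.72, and 27 of the 160 reached 10 FPKM while 105 stayed under 5. At the threshold, Gm34934 with 2.02 and 4831440E17Rik with 2.01 FPKM were just inside, and Gm33699 with 1.99 and 4930562F07Rik with 1.98 FPKM were just outside. H19, left out by name, averaged 2.40 FPKM, and Meg3 averaged 1.55 FPKM. The number of reads per lincRNA over all 8 libraries ran from 93 to 272656 with a median of 758.5, and Neat1, Malat1 and 1700020I14Rik together held 57.7% of the reads. The mean that chose the lincRNAs is taken over the same libraries that are compared below. A lincRNA high in a single group could enter through that group alone: 51 were at 2 FPKM or more in KLF10AKO only, 23 in WT only and 86 in both groups. For those 51 and 23 the choice itself favours a difference in that direction. Their differences, ranks and p-values below are therefore a description.

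LincRNAs that were higher in KLF10AKO iWAT reached far larger differences than those that were lower. Differences are KLF10AKO minus WT on the log2(FPKM + 0.5) scale, fitted with limma over 16012 genes. Of the 160 lincRNAs, 127 (79.4%) passed at an adjusted p of 0.05, against 74.3% of all genes tested and 78.0% of protein-coding genes. These were 76 (47.5%) higher and 51 (31.9%) lower in KLF10AKO, against 39.4% and 34.9% of all genes. The shares of all genes cover those with a mean of at least 0.5 FPKM, a lower limit than the 2 FPKM that chose the lincRNAs. In a fit limited to genes with a mean of at least 2 FPKM, 9300 of 11712 genes passed. There 77 of the 160 lincRNAs were higher and 52 lower, so the matched limit showed no clear excess of calls. Among the 86 at 2 FPKM or more in both groups, 56 (65.1%) passed, 27 (31.4%) higher and 29 (33.7%) lower. The 319 lincRNAs tested that were below the threshold had 60.2% called, and all 479 lincRNAs tested had 66.6%.

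The spread of sizes was uneven. Differences ran from -1.95 to 6.03, with a median of 0.30 against 0.05 over all genes tested, and the median was -0.05 in the 86 lincRNAs at 2 FPKM or more in both groups. A rise of at least 4-fold was seen in 31 lincRNAs (19.4%), against 7.59% of all genes, and a fall of at least 4-fold in 0, against 0.531% of all genes. In 116 lincRNAs (72.5%) the 4 KLF10AKO values and the 4 WT values did not overlap, against 69.2% of all genes. The choice of lincRNAs by their mean bears on these shares, and they are given as a description. The shares of all genes again cover genes with a mean of at least 0.5 FPKM. They were not counted at the limit of 2 FPKM used for the lincRNAs. How many were higher or lower depended on the scaling. Of the lincRNAs that passed, 59.8% were higher with the authors' FPKM, 67.7% with TPM and 52.3% with quantile normalization, and all that passed were higher when each library was scaled to the adipocyte markers. These scalings moved the median of all genes by 0.20, -0.20 and 1.63 on the log2 scale. The adipocyte scaling moved the difference of each gene by that same 1.63.

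**Figure D1:**
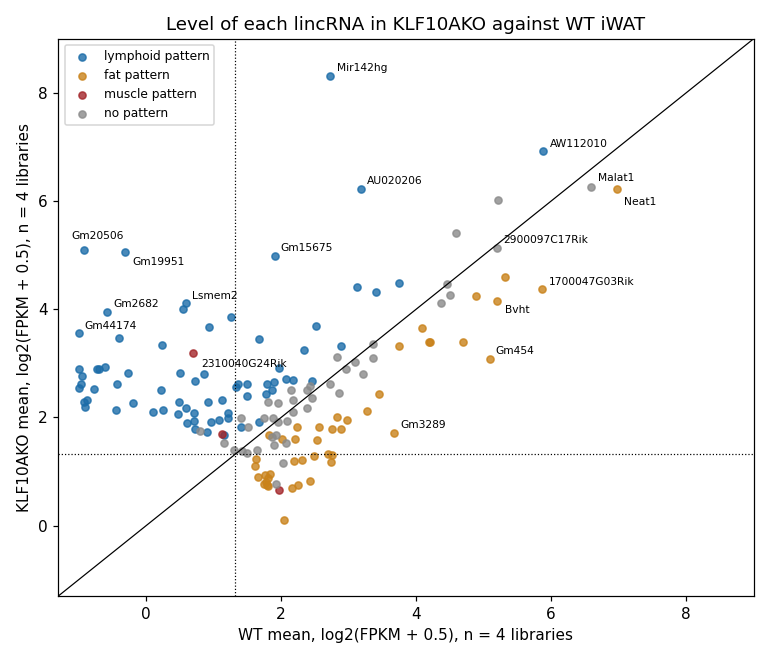
Mean level of each of the 160 lincRNAs in KLF10AKO (vertical axis) against WT (horizontal axis), both as log2(FPKM + 0.5) over 4 libraries. The solid line marks equal levels and the dotted lines mark 2 FPKM. Points far above the line, such as Mir142hg and Gm20506, have no counterpart as far below it, where Gm3289 and Gm454 lie farthest.

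Each lincRNA was set beside 3 profiles across the libraries, as a description without a test. The muscle pattern asked that KLF10AKO replicates 1, 2 and 3 each lay at least 1 log2 unit above replicate 4. Of the rest, the lymphoid pattern asked for all KLF10AKO values above all WT values, and the fat pattern for all KLF10AKO values below all WT values. The same rule put all 15 B cell and all 15 T cell markers in the lymphoid pattern and all 15 adipocyte markers in the fat pattern. It put all 14 skeletal muscle markers tested in the muscle pattern, and Tnnc2 was below the filter and was not classed. The fat pattern also held 9 of 10 endothelial, 8 of 10 fibroblast, 8 of 12 macrophage, 6 of 9 smooth muscle and pericyte, 4 of 6 Schwann cell and all 8 trophoblast genes tested, and the lymphoid pattern held 11 of 12 genes for paraspeckle and speckle proteins, so neither is particular to the cells it is named for. Among the lincRNAs, 71 had the lymphoid pattern, 44 the fat pattern, 3 the muscle pattern and 42 none of these. For comparison, all KLF10AKO values were above all WT values in 5801 of the 16012 genes tested, and below them in 5278. Those counts do not set the muscle pattern apart, and its share over all genes was not counted. The lymphoid pattern held 46 of the 51 lincRNAs that reached 2 FPKM in KLF10AKO only, and the fat pattern held 20 of the 23 that reached it in WT only, shares that follow from how the lincRNAs and the patterns were chosen.

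The finer order of the knockout libraries followed the marker genes in part. Of the 71 lincRNAs with the lymphoid pattern, 45 were highest in KLF10AKO replicate 4 and 51 were lowest in replicate 3, the order that all B and T cell markers had. Of the 44 with the fat pattern, 20 were highest in replicate 3 and 25 were lowest in replicate 4, where 14 of 15 adipocyte markers had each of these extremes. Among the 42 with none of the patterns, 19 were highest in replicate 4 and 18 were lowest in replicate 3. These extremes were thus also the most common outside the lymphoid pattern. In the same 42, 9 were highest in replicate 3 and 8 lowest in replicate 4. The order was not counted over all genes. A lymphoid or fat pattern names a direction shared with marker genes, and the cells that made the RNA were not identified in these bulk libraries.

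**Figure D2:**
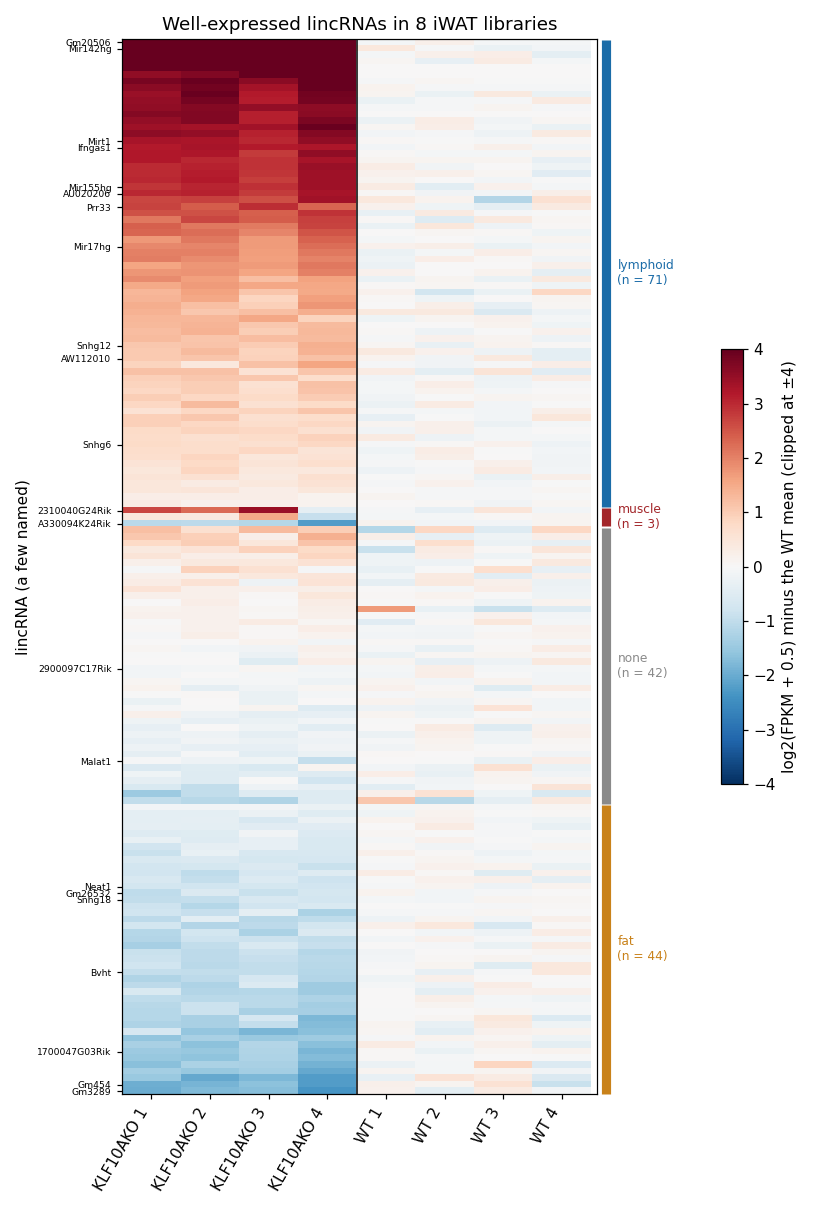
Level of the 160 lincRNAs (rows) in the 4 KLF10AKO and 4 WT libraries (columns) as log2(FPKM + 0.5) minus the WT mean, clipped at 4 units, grouped by pattern. The 71 lincRNAs of the lymphoid pattern are above WT in all KLF10AKO libraries, the 44 of the fat pattern are below it, and the 3 of the muscle pattern drop in KLF10AKO replicate 4.

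Host RNAs of microRNAs used by lymphocytes were higher in KLF10AKO iWAT. Mir142hg (ENSMUSG00000084796, mm10 chromosome 11, 87755577 to 87757270, plus strand) had the highest mean of all the lincRNAs. It was read at 301, 336, 232 and 408 FPKM in KLF10AKO replicates 1 to 4 and at 8.21, 5.81, 4.95 and 5.57 FPKM in WT replicates 1 to 4. Every KLF10AKO library was far above every WT library, with replicate 4 highest and replicate 3 lowest among the knockouts. Its log2 difference was 5.58 (standard error 0.191, limma adjusted p = 3.04e-08), which is 47.9-fold on the scale with the pseudocount. Its exact two-sided permutation p was 0.0286, the smallest that 4 against 4 libraries can give, and so was that of every other lincRNA named below that passed without overlap.

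Mir155hg (chromosome 16, 84703167 to 84715245, plus strand) had 4.82, 5.59, 5.002 and 7.16 FPKM in KLF10AKO and 0.4205, 0.04196, 0.325 and 0.1901 FPKM in WT. Its values did not overlap between the groups, and it rose by 3.06 (standard error 0.184, limma adjusted p = 8.64e-07). Mir17hg (chromosome 14, 115042879 to 115046727, plus strand) had 6.29, 6.48, 5.38 and 7.92 FPKM in KLF10AKO and 1.53, 1.599, 0.9799 and 1.16 FPKM in WT. Again the groups did not overlap and KLF10AKO replicate 4 was the highest library, and the rise was 1.95 (standard error 0.144, limma adjusted p = 2.89e-06). Mir155hg and Mir17hg reached a mean of 2 FPKM in KLF10AKO only, with WT means of 0.244 and 1.32 FPKM. Both thus entered the set through the group where they are high, and their rises are given as a description. The hairpins of the cluster make up 15.2% of the exon bases of Mir17hg in GENCODE M21, where reads of host and hairpin cannot be told apart.

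Other microRNA hosts moved less or the other way. Beside them, Gm26532 starts within the last bases of Mir24-2, a gene of the cluster that also makes miR-23a and miR-27a. It was singled out for this after its values were seen. It spans no whole mature microRNA on its own strand, so it is a neighbour of the cluster and was not shown to be a host. It had 8.48, 11.6, 9.35 and 10.6 FPKM in KLF10AKO and 19.8, 16.3, 17.3 and 17.8 FPKM in WT, and it fell by 0.80 without overlap (limma adjusted p = 8.74e-05), a direction that turned to 0.83 when the libraries were scaled to adipocyte markers. E130102H24Rik, the miR-101a host, differed by 0.0061 with a 95% interval of -0.28 to 0.29 (limma adjusted p = 0.968), and 6720427I07Rik, the let-7d host, by -0.12 with an interval of -0.35 to 0.11 (limma adjusted p = 0.316). Both were named after their values were seen. 6720427I07Rik passed at -0.34 with quantile normalization, and E130102H24Rik passed at 1.64 under the adipocyte scaling. In the list of microRNA hosts, 6 RNAs could be tested, of which 4 were higher and 2 lower, or 6 and 0 under the adipocyte scaling. The 3 outside the present set were Dleu2, the miR-15a and miR-16-1 host, at 0.63, Mir22hg at -0.88 and Mir99ahg at -0.47. Snhg20, 2900076A07Rik and Snhg10 also span microRNAs and are given below with the snoRNA hosts.

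Of the lincRNAs that host snoRNAs, more were higher than lower in KLF10AKO. SnoRNAs guide the chemical modification of ribosomal and other RNAs and are cut from the introns of these hosts. Among the lincRNAs, 7 hold 11 snoRNA or small Cajal body RNA genes on their own strand, of which 5 rose, 1 fell and 1, Snhg10, did not pass, where 39.4% of all genes tested were higher and 34.9% lower. The smallest of the rises, 0.21 in 2900076A07Rik, which was named after its values were seen, turned to -0.0080 with quantile normalization and lost its call without KLF10AKO replicate 1 or without WT replicate 3, at 0.17 and 0.16, with voom and with KLF10AKO replicate 4 alone (limma adjusted p = 0.0241 with all libraries). Snhg12, which holds 4 kinds of snoRNA gene, had 11.6, 12.04, 11.04 and 14.7 FPKM in KLF10AKO and 5.55, 4.18, 5.85 and 5.39 FPKM in WT. All KLF10AKO libraries were above all WT libraries, and the rise was 1.16 (standard error 0.118, limma adjusted p = 2.09e-05).

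Snhg20 followed with 19.1, 20.1, 15.4 and 23.2 FPKM in KLF10AKO and 9.46, 12.1, 8.92 and 9.77 FPKM in WT, a rise of 0.91 (limma adjusted p = 2.07e-04). Snhg6, host of Snord87, had 22.5, 21.4, 20.3 and 23.4 FPKM in KLF10AKO and 12.6, 13.4, 14.7 and 11.2 FPKM in WT, a rise of 0.74 (limma adjusted p = 5.67e-05). Neither overlapped between the groups, but 11.1% of the exon bases of Snhg6 are shared with Mcmdc2 on the other strand. Epb41l4aos, a host on chromosome 18, had 40.2, 45.8, 31.03 and 51.1 FPKM in KLF10AKO and 21.3, 36.1, 19.1 and 18.1 FPKM in WT. WT replicate 2 lay above KLF10AKO replicate 3, so the groups overlapped, and the rise of 0.85 passed limma (adjusted p = 0.00829) but had an exact two-sided permutation p of 0.0571. With KLF10AKO represented by replicate 4 alone it was 1.15 and did not pass.

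Snhg18, host of Snord123, went the other way, with 8.94, 9.11, 11.2 and 10.6 FPKM in KLF10AKO and 16.9, 16.7, 19.5 and 18.9 FPKM in WT. It fell by 0.83 without overlap (limma adjusted p = 3.26e-05), a direction that turned to 0.80 under the adipocyte scaling. Snhg10, which was named after its values were seen, had 4.39, 3.19, 2.81 and 2.89 FPKM in KLF10AKO and 4.05, 3.296, 3.65 and 3.99 FPKM in WT, an overlapping difference of -0.17 with a 95% interval of -0.46 to 0.13 (limma adjusted p = 0.266). It passed at -0.42 with quantile normalization and at -0.29 without KLF10AKO replicate 1, while it was 0.016 with TPM. Over the whole list of snoRNA hosts, lincRNA or not, 11 of 15 tested were higher and 3 lower, with a median difference of 1.01, and the same counts held with TPM and quantile normalization, while 14 were higher and 0 lower under the adipocyte scaling. Among those outside the present set, Snhg15 stood at 2.37, Zfas1 at 1.72, Snhg1 at 1.69 and Gas5 at 1.36, while Snhg11 stood at -1.74 and Rian at -0.85.

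**Figure D3:**
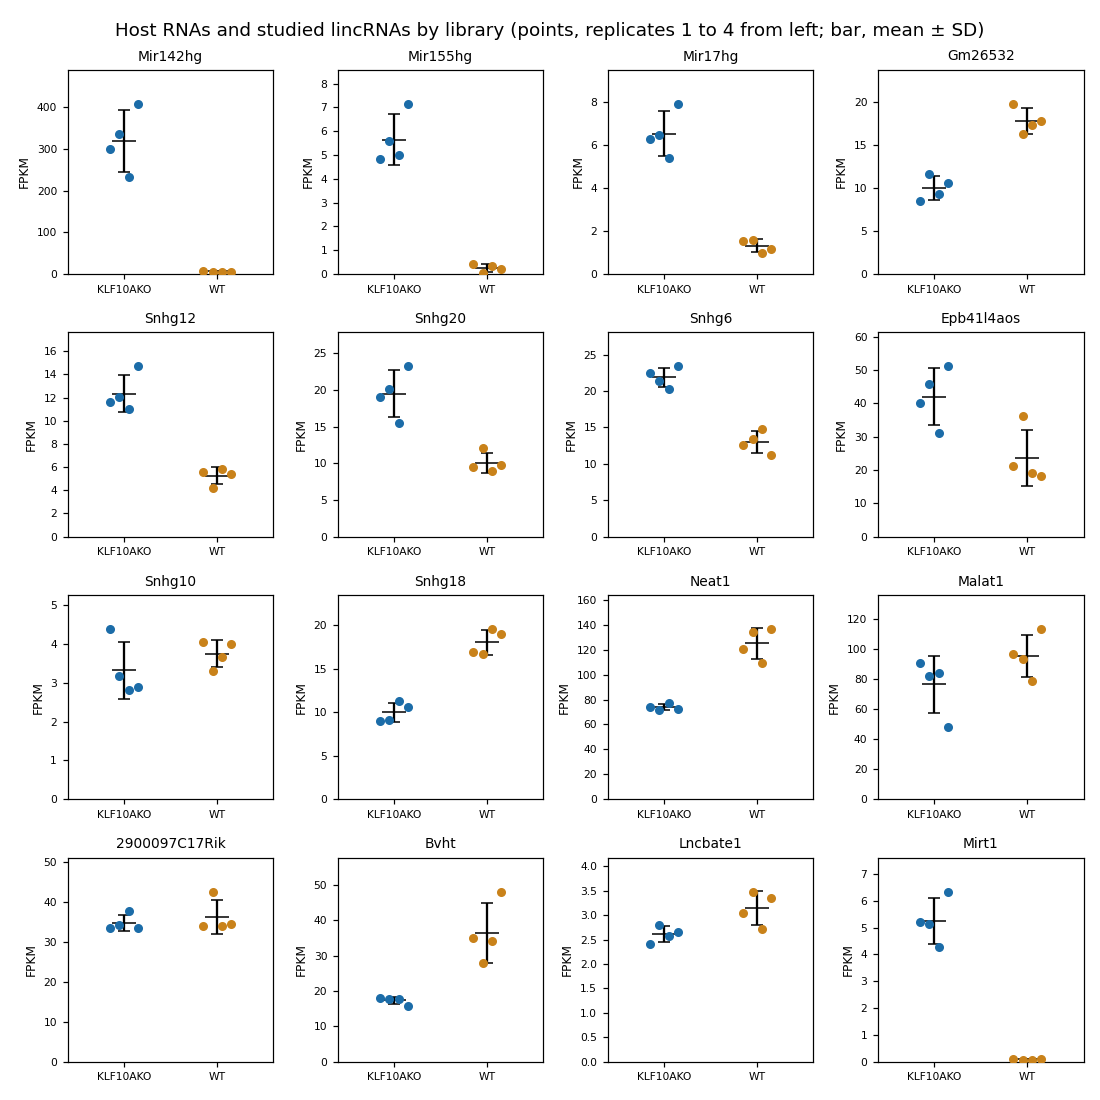
FPKM of 16 lincRNAs (host RNAs, studied ones and Gm26532) in each library. KLF10AKO is left of WT in each panel, with points for replicates 1 to 4 from left and bars for the mean ± SD (n = 4 each). Mir142hg, Mir155hg, Mir17hg and Mirt1 show no overlap and a wide gap, while Malat1, Snhg10 and 2900097C17Rik overlap.

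The nuclear RNAs Neat1 and Malat1, neighbours on chromosome 19, were the most deeply read of the set. Neat1 (5824708 to 5845478, minus strand) builds paraspeckles, the nuclear bodies that hold back certain proteins and RNAs. It had 74.4, 71.9, 76.9 and 72.8 FPKM in KLF10AKO and 120.4, 134, 109 and 137 FPKM in WT. These gene values come from libraries selected for poly(A) tails and do not separate forms of the RNA. Paraspeckles were not measured. The KLF10AKO libraries lay close together and all below WT, a fall of 0.75 (standard error 0.0795, limma adjusted p = 2.92e-05) that turned to 0.88 under the adipocyte scaling. Malat1 (5795690 to 5802672, minus strand), an RNA of nuclear speckles, had 90.95, 82.4, 84.2 and 48.4 FPKM in KLF10AKO and 96.7, 93.2, 79.04 and 114 FPKM in WT.

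Malat1 was low in KLF10AKO replicate 4 while the other knockout libraries lay among the WT values. Its difference of -0.35 (95% interval -0.80 to 0.10, limma adjusted p = 0.141) did not pass, but with KLF10AKO represented by replicate 4 alone it was -0.96 and passed, and without that library it was -0.14 and did not. All 12 genes tested for proteins of paraspeckles and speckles were higher in KLF10AKO, against 39.4% of all genes, with a median of 0.52, among them the paraspeckle proteins Sfpq at 0.64 and Nono at 0.60 and the splicing factor Srsf1 at 0.69. Under the adipocyte scaling and with TPM all 12 passed again, and with quantile normalization 10 did, none of them lower. Of a list of 19 other studied noncoding RNAs that could be tested, 5 were higher and 9 lower, or 17 and 0 under the adipocyte scaling, and 6 of the 19 belong to the present set.

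Of these, Bvht, named Braveheart for its part in making heart muscle cells from mouse stem cells, had 18.1, 17.7, 17.7 and 15.9 FPKM in KLF10AKO and 34.9, 28.04, 34.2 and 48.1 FPKM in WT. The groups did not overlap, and it fell by 1.02 (limma adjusted p = 1.76e-04), which turned to 0.61 under the adipocyte scaling. Lncbate1, a noncoding RNA of the brown fat programme, had 2.403, 2.79, 2.58 and 2.65 FPKM in KLF10AKO and 3.05, 3.48, 2.71 and 3.35 FPKM in WT. Its groups overlapped, and the small fall of 0.23 (limma adjusted p = 0.0376, exact two-sided permutation p = 0.0571) lost its call under TPM, where it was -0.056, with voom, without a filter on low values, with KLF10AKO replicate 4 alone and when any of 6 of the 8 libraries was left out, and turned to 1.40 under the adipocyte scaling. The libraries whose absence left it uncalled were KLF10AKO replicates 1, 3 and 4 and WT replicates 1, 2 and 4.

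Mirt1, named for its rise in infarcted mouse heart, had 5.22, 5.13, 4.28 and 6.34 FPKM in KLF10AKO and 0.1005, 0.0763, 0.0692 and 0.102 FPKM in WT. It was nearly absent from all WT libraries, shares 11.8% of its exon bases with a lincRNA on the other strand, and rose by 3.28 (standard error 0.117, limma adjusted p = 3.97e-08). Mirt1 too entered the set through KLF10AKO alone. Gm26917 had 16.5, 17.05, 15.8 and 17.7 FPKM in KLF10AKO and 50.04, 12.1, 7.91 and 10.5 FPKM in WT, where replicate 1 stood far above the rest. Its difference of 0.15 did not pass (limma adjusted p = 0.794), but without WT replicate 1 it was 0.71 and passed. In the same library Gm23935, a gene with the microRNA biotype in the table, was listed at 76877 FPKM, against 1022 to 1822 FPKM in the other WT libraries and 877 to 1057 FPKM in KLF10AKO.

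2900097C17Rik, the mouse counterpart of NORAD, an RNA that binds Pumilio proteins, did not pass. It was named after its values were seen, and had 33.5, 34.1, 37.8 and 33.5 FPKM in KLF10AKO and 33.8, 42.5, 33.99 and 34.4 FPKM in WT. The groups overlapped and the 95% interval of the difference was -0.25 to 0.14 (limma adjusted p = 0.579). Dubr, named after its values were seen, differed by 0.10 with an interval of -0.11 to 0.31 (limma adjusted p = 0.3602). These intervals are on the authors' scale, and under the adipocyte scaling the values were 1.58 and 1.73.

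The 71 lincRNAs of the lymphoid pattern are above WT in every KLF10AKO library by definition. All 71 passed limma, as did 98.9% of all genes tested with that arrangement, and their median difference was 1.78 with a range of 0.21 to 6.03. AW112010 (chromosome 19, 11047617 to 11050566, minus strand), an RNA of immune cells that in the mouse is induced by interferon, was the third most abundant lincRNA. It had 119, 124, 109.9 and 130.5 FPKM in KLF10AKO and 63.6, 52.3, 75.5 and 43.3 FPKM in WT, so that it was well read in every library. The KLF10AKO libraries lay above the WT libraries throughout, and the rise was 1.06 (standard error 0.156, limma adjusted p = 2.38e-04).

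AU020206 (chromosome 7, 75769038 to 75782099, minus strand) had 72.7, 75.3, 62.3 and 88.6 FPKM in KLF10AKO and 8.75, 7.67, 7.88 and 10.01 FPKM in WT. It was several times higher in each knockout library than in any WT library, a rise of 3.05 (standard error 0.118, limma adjusted p = 6.46e-08). Gm15675, named after its values were seen, had 28.5, 32.3, 25.98 and 38.3 FPKM in KLF10AKO and 3.66, 3.74, 3.35 and 2.22 FPKM in WT, a rise of 3.09 (limma adjusted p = 4.28e-07).

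Several lincRNAs were close to absent from WT fat. Those given here and in the next paragraph reached 2 FPKM in KLF10AKO only, so they entered the set through the group where they are high. Their ranks, p-values and folds are given as a description. Gm20506 (chromosome 17, 34249057 to 34250264, plus strand) had 33.1, 34.9, 29.1 and 38.3 FPKM in KLF10AKO and 0, 0.102, 0 and 0 FPKM in WT. This was 1469 reads in KLF10AKO against 1 read in WT, a ratio of 1221 with a 95% counting interval of 219 to 48248 after allowing for library size. Its fitted difference of 6.03 was the largest of the set (limma adjusted p = 1.82e-09). Gm19951 had 33.7, 35.7, 25.6 and 37.04 FPKM in KLF10AKO and 0.252, 0.408, 0.452 and 0.103 FPKM in WT, a rise of 5.39 (limma adjusted p = 1.68e-08). Gm2682 had 15.6, 15.5, 12.7 and 16.4 FPKM in KLF10AKO and 0.194, 0.0291, 0.322 and 0.132 FPKM in WT, a rise of 4.55 (limma adjusted p = 1.67e-08).

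For 3 lincRNAs no read fell in any WT library, and their folds are lower bounds against 3 reads over the WT group. Gm44174 had 13.5, 8.97, 8.604 and 14.1 FPKM in KLF10AKO, from 117 reads, and was at least 32.4-fold higher. Gm48038 had 5.31, 5.99, 7.55 and 9.08 FPKM in KLF10AKO and was at least 54.8-fold higher, and Gm11707, named after its values were seen, was at least 53.7-fold higher. Ifngas1, which lies near the interferon gene Ifng and was named after its values were seen, had 373 reads in KLF10AKO and 3 in WT, a ratio of 103 with a 95% counting interval of 35.1 to 503. Such intervals and bounds cover counting error only, and not the choice of these lincRNAs by their KLF10AKO level.

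For 3 of these lincRNAs the protein-coding genes of most similar profile over the 8 libraries are given. Likeness was the root mean square difference of log2(FPKM + 0.5) after subtracting the WT mean. In genes near 0 in WT the pseudocount holds the difference down, so genes with unlike folds can come out near each other. The nearest to Gm20506 were Fcrla at 0.115, Fcrl1 at 0.152 and Blk at 0.161, all of them known from B cells. The nearest to Mir142hg were H2-Eb2 at 0.179, Dapl1 at 0.201 and Lck, the kinase of the T cell receptor, at 0.207. The WT means of H2-Eb2 and Dapl1 were 0.0516 and 0 FPKM, against 6.14 FPKM for Mir142hg, so these matches depend on the pseudocount. The nearest to Gm19951 were Ifi209 at 0.131, Cd3d at 0.140 and Lat at 0.143, where Cd3d and Lat belong to T cell receptor signalling. The B and T cell markers moved with all of these, by medians of 6.72 and 5.19, and their part in the rise of the lincRNAs was not tested.

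**Figure D4:**
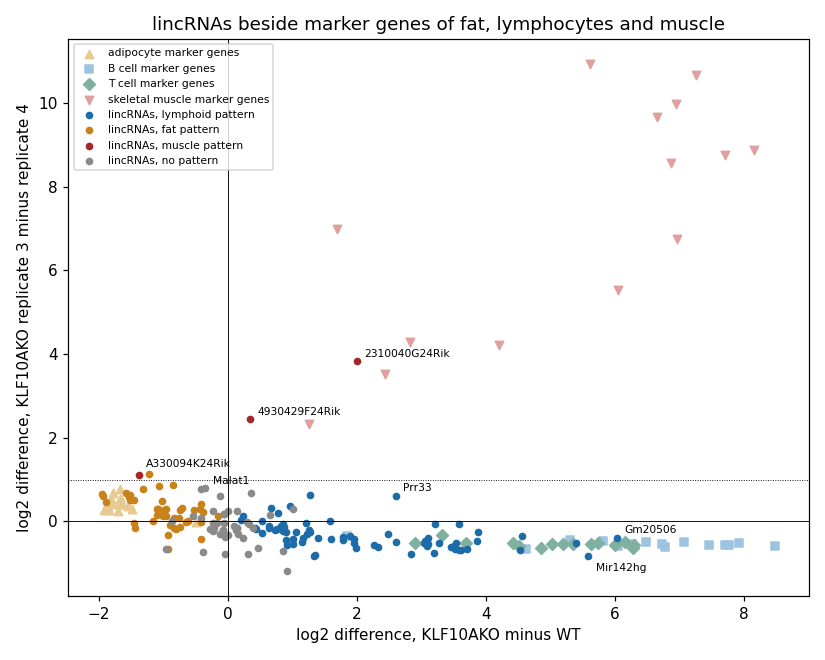
Each of the 160 lincRNAs (circles) and the marker genes of 4 cell types (other shapes) by log2 difference between KLF10AKO and WT (horizontal axis) and by log2 difference between KLF10AKO replicates 3 and 4 (vertical axis). The dotted line marks 1 unit. Muscle markers rise far up the vertical axis, where 2310040G24Rik and 4930429F24Rik are the highest lincRNAs.

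The fat pattern held 44 lincRNAs, of which 43 passed and 1, Gm37494 with -0.15, named for this after its values were seen, did not (limma adjusted p = 0.09197). Their median difference was -0.97, against a median of -1.67 for the 15 adipocyte markers, and 3 of the 44 were still below 0 when the libraries were scaled to those markers. The 3 were Gm3289, Gm454 and Gm30557. All other fat pattern lincRNAs named here turned to a positive value under that scaling, and none of the 160 was called lower with it. Blood vessel, fibroblast and Schwann cell markers fell too: 9 of 10 endothelial, 9 of 10 fibroblast and 4 of 6 Schwann cell genes tested were lower on the authors' scale, against 0, 2 and 1 under the adipocyte scaling. Under the latter, 10 endothelial, 5 fibroblast and 3 Schwann cell genes were called higher. Their part in the fall of these lincRNAs was not tested.

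Gm3289 (chromosome 6, 21852981 to 21858178, minus strand) had 2.65, 3.21, 3.36 and 1.95 FPKM in KLF10AKO and 13.5, 9.15, 15.2 and 10.99 FPKM in WT. All knockout libraries were far below WT with replicate 4 lowest, a fall of 1.95 (standard error 0.185, limma adjusted p = 1.41e-05), or -0.32 under the adipocyte scaling, where it did not pass. In GENCODE M21 it shares 22.9% of its exon bases with the antisense gene Gm30270. Gm454 had 7.73, 8.28, 9.77 and 6.26 FPKM in KLF10AKO and 36.2, 34.2, 47.02 and 16.95 FPKM in WT, with WT replicate 4 well below the other WT libraries. It fell by 1.93 (limma adjusted p = 2.16e-04), or -0.30 under the adipocyte scaling, where it did not pass.

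Gm30557 had 0.907, 0.453, 0.632 and 0.325 FPKM in KLF10AKO and 2.69, 5.17, 4.39 and 2.15 FPKM in WT. It fell by 1.89 (limma adjusted p = 1.74e-04), or -0.25 under the adipocyte scaling, where it did not pass. AC114585.1 had 2.06, 1.83, 2.08 and 1.11 FPKM in KLF10AKO and 6.67, 5.79, 6.61 and 5.52 FPKM in WT. It fell by 1.57 (limma adjusted p = 1.65e-05), or 0.06 under the adipocyte scaling. Both RNAs were lowest in KLF10AKO replicate 4 and did not overlap between the groups.

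Gm35552 had 1.07, 1.597, 1.53 and 0.859 FPKM in KLF10AKO and 3.72, 4.25, 8.58 and 2.92 FPKM in WT, a fall of 1.53 (limma adjusted p = 0.00112), or 0.11 under the adipocyte scaling. B230208H11Rik had 1.15, 1.06, 1.54 and 0.942 FPKM in KLF10AKO and 4.45, 4.104, 4.31 and 4.17 FPKM in WT, a fall of 1.52 (limma adjusted p = 2.47e-06), or 0.11 under the adipocyte scaling. WT replicate 3 stood high in Gm35552, while the WT libraries of B230208H11Rik lay close together. The most abundant lincRNA of the fat pattern after Neat1 was 1700047G03Rik (chromosome 15, 11964276 to 11970086, plus strand), named after its values were seen. It had 20.6, 19.8, 24.5 and 15.8 FPKM in KLF10AKO and 59.6, 47.6, 61.5 and 63.4 FPKM in WT, a fall of 1.51 (standard error 0.138, limma adjusted p = 1.10e-05), or 0.12 under the adipocyte scaling.

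The coding genes nearest in profile included genes of adipocytes. For Gm3289 they were Mrap, an accessory protein of the ACTH receptor that adipocytes express, at 0.123, Lbp at 0.135 and Ogn, a proteoglycan of connective tissue, at 0.137. For Gm454 they were Clstn3 at 0.143, Slc25a10, the mitochondrial dicarboxylate carrier, at 0.191 and the histone gene Hist1h4c at 0.201. Hist1h4c had means of only 0.248 FPKM in KLF10AKO and 2.59 FPKM in WT, so its match depends on the pseudocount. For Gm30557 they were the histone gene Hist1h4h at 0.236, Arxes2, a gene of the adipocyte differentiation programme, at 0.250 and Abhd3 at 0.257.

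Of the lincRNAs in the fat pattern, 1810058I24Rik and Tmem250-ps are listed as protein coding by RefSeq. They were named after their values were seen. 1810058I24Rik, which RefSeq also lists as Stmp1, a small mitochondrial membrane protein, fell by 0.72 (limma adjusted p = 2.54e-04), or 0.92 under the adipocyte scaling. Tmem250-ps, which shares 14.8% of its exon bases with a lincRNA on the other strand, fell by 0.64 (limma adjusted p = 1.02e-05), or 0.99 under that scaling. RefSeq had entries for 101 of the 160 lincRNAs, 93 of them as long noncoding RNA, 6 as protein coding and 2 as pseudogenes.

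The muscle pattern held 3 lincRNAs, and in 2 of them, 2310040G24Rik and 4930429F24Rik, the knockout libraries stood in the order of the summed muscle markers. 2310040G24Rik (chromosome 6, 86483376 to 86488227, minus strand) had 9.595, 7.07, 17.01 and 0.731 FPKM in KLF10AKO and 1.04, 0.776, 1.72 and 0.966 FPKM in WT. KLF10AKO replicates 1 to 3 were high, with replicate 3 highest, and replicate 4 was below all WT libraries. The difference of 2.003 (standard error 0.706) passed limma narrowly (adjusted p = 0.0286) and had an exact two-sided permutation p of 0.143. With KLF10AKO represented by replicate 4 alone it turned to -0.37, and leaving out any of KLF10AKO replicates 1, 2 or 3 or WT replicates 1, 2 or 4 ended the call, with values of 1.52 to 1.99. Quantile normalization, voom and the fit without a filter ended it too, with 1.74, 2.33 and 2.003. The coding genes nearest in profile were Cap2 at 0.138, Ctxn3 at 0.153 and Itgb1bp2, a protein of striated muscle also called melusin, at 0.192.

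The knockout libraries of the other lincRNAs were less far apart. 4930429F24Rik had 2.39, 2.32, 5.66 and 0.634 FPKM in KLF10AKO and 1.54, 1.54, 1.75 and 1.84 FPKM in WT. Replicates 1 to 3 were above all WT libraries and replicate 4 below them, so the difference of 0.34 did not pass (limma adjusted p = 0.4797), but without KLF10AKO replicate 4 it was 0.77 and passed. A330094K24Rik had 1.34, 1.39, 1.29 and 0.331 FPKM in KLF10AKO and 3.78, 3.103, 3.11 and 3.71 FPKM in WT. All knockout libraries were below all WT libraries, with replicate 4 lowest by far and replicate 2 highest, a fall of 1.38 (limma adjusted p = 9.47e-04), or 0.25 under the adipocyte scaling. Its nearest coding genes were P2rx5 at 0.162 and Gm14403 at 0.167. The pattern held 6 lincRNAs with a limit of 0.5 and 1, 2310040G24Rik, with a limit of 2.

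Promoter sequence is shown for 1 lincRNA of each pattern, as examples of the windows in which motifs were counted. The lincRNAs were taken after their values were seen, as well-read ones that have a RefSeq promoter. KLF10 is known to bind GC-rich boxes, so the GC box GGGCGG and the box CACCC were searched on both strands. The box known as CCAAT was searched for comparison, with the TATA box TATAAA and with CCGGAA, the core of ETS factor sites. Each window runs from 250 bases before to 50 bases after the RefSeq start, is written 5′ to 3′ on the gene's strand, and has the matches in capitals. No match overlaps another in these windows.
AU020206, chr7:75782071-75782370, minus strand: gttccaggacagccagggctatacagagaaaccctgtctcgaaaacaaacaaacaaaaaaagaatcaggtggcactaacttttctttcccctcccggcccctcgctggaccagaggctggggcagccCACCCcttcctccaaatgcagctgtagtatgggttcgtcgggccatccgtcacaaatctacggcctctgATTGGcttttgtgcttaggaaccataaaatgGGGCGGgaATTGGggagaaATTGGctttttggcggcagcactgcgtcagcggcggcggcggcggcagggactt
1700047G03Rik, chr15:11966812-11967111, plus strand: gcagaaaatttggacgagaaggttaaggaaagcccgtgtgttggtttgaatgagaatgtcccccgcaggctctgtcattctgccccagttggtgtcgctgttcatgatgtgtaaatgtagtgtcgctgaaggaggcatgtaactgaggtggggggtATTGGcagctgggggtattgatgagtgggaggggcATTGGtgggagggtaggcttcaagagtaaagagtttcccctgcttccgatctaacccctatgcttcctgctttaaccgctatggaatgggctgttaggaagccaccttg
2310040G24Rik, chr6:86488178-86488477, minus strand: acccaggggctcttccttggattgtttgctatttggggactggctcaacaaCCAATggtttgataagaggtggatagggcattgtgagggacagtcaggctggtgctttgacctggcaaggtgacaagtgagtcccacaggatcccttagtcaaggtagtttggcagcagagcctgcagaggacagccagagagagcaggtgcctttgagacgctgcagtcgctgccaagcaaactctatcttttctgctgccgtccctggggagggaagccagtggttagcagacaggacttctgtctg
The AU020206 window, on build GRCm38.p6 like the others, holds 1 GC box, 1 CACCC box and 3 CCAAT boxes. The 1700047G03Rik window, which lies within the span of the gene in the deposited table, holds 2 CCAAT boxes, and the 2310040G24Rik window holds 1 CCAAT box.

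The same letters were counted in all promoters. RefSeq gave 96 promoters for 82 of the 160 lincRNAs, of which 33.3% held GGGCGG, against 35.7% of 32851 promoters of the genome. CACCC was in 54.2% of them, against 57.5% of all promoters. CCAAT was in 42.7%, against 37.4%, TATAAA in 8.33%, against 13.6%, and CCGGAA in 19.8%, against 14.9%. A match is a run of letters and not a binding site, and KLF10 binding was not measured here.

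The direction of each lincRNA was set beside that of the nearest protein-coding gene. The nearest one was tested for 135 of the 160 lincRNAs, and both members of the pair passed in 86. In 64 of these the directions were the same: 41 of 51 lincRNAs that rose had a neighbour that rose, and 23 of 35 that fell had one that fell. Within 10 kb both passed in 58 pairs, of which 46 moved the same way. For comparison, 50.3% of the protein-coding genes that passed were higher and 49.7% lower, and the falls are on the authors' scale, since no lincRNA was called lower under the adipocyte scaling.

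Some close pairs held genes that mark lymphocytes, and a few pairs are given as examples. Gm20506 lies 3150 bases from H2-Ob, a class II gene of B cells, which rose by 6.74. Gm44174 lies 143 bases from Cd8a, the co-receptor of cytotoxic T cells, which rose by 6.28. AI504432, named after its values were seen, rose by 3.86 and lies 1434 bases from Kcna3, a potassium channel of T cells, which rose by 2.08. On the falling side, Gm3289 lies 466 bases from Tspan12, a membrane protein of the tetraspanin family, which fell by 1.71. Mir155hg rose while its neighbour Mrpl39, a protein of the mitochondrial ribosome, stood at -0.30. The directions were the same in 64 of the 86 pairs in which both passed, so other pairs moved apart too.

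Pairs of genes that start back to back within 1 kb were counted as divergent. Of 25 such pairs with a tested partner, both genes passed in 13 and moved the same way in 12. The exception was 4831440E17Rik with -0.74 and its partner Kmt2c, a histone methyltransferase, with 0.66. Of 4 divergent lincRNAs that rose by at least 1 unit, all had a partner that rose. One of them was Gm12319, named after its values were seen, with 21.1, 21.3, 24.7 and 15.7 FPKM in KLF10AKO and 7.13, 8.76, 9.33 and 7.63 FPKM in WT. It rose by 1.27 (limma adjusted p = 3.28e-05), was highest in KLF10AKO replicate 3 and lowest of the knockouts in replicate 4, and starts beside Eno3, the enolase of muscle, which rose by 4.20.

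Some lincRNAs lie inside other genes, which limits how their reads can be assigned. The spans of 18 overlap a protein-coding gene, and 45 share exon bases with another gene in GENCODE M21, 26 of them over at least 10% of their length. Without these 26, 60 lincRNAs were higher and 45 lower. Prr33, named after its values were seen, overlaps the span of the fast troponin gene Tnnt3, which rose by 8.15, though it shares no exon bases with it. It had 14.9, 12.2, 17.5 and 11.3 FPKM in KLF10AKO and 2.17, 1.59, 1.33 and 2.49 FPKM in WT. It was high in all knockout libraries, with replicate 4 the lowest of them, and rose by 2.60 (limma adjusted p = 2.13e-06). Lsmem2, which RefSeq lists as protein coding and which was named after its values were seen, had 15.2, 14.4, 14.9 and 22.6 FPKM in KLF10AKO and 1.09, 1.304, 0.903 and 0.738 FPKM in WT, a rise of 3.51 (limma adjusted p = 2.09e-07) with replicate 4 the highest.

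**Figure D5:**
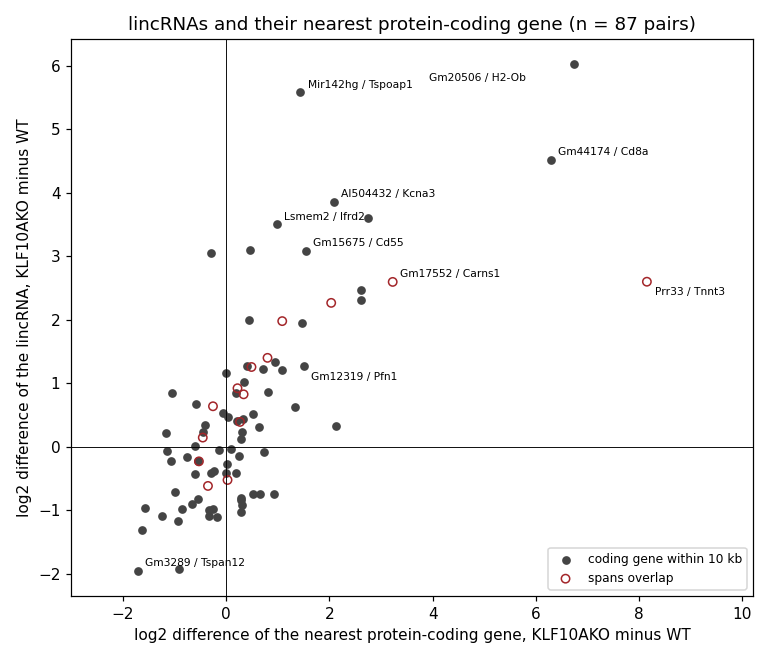
Log2 difference between KLF10AKO and WT of each lincRNA (vertical axis) against that of its nearest protein-coding gene (horizontal axis), for 87 pairs within 10 kb, with 14 overlapping pairs as open circles. Gm20506 with H2-Ob and Gm44174 with Cd8a lie far up on both axes, and Prr33 with Tnnt3 is the overlapping pair farthest to the right.

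The remaining 42 lincRNAs had none of the 3 patterns, and 11 of them passed limma with overlapping groups. The most abundant after Malat1 was Gm10076, a short gene that RefSeq lists as a pseudogene, with 71.8, 48.7, 74.96 and 61.4 FPKM in KLF10AKO and 13.9, 55.4, 21.3 and 55.5 FPKM in WT. The WT libraries split into a low pair, replicates 1 and 3, and a high pair that lay among the knockouts. The difference of 1.02 did not pass (limma adjusted p = 0.0566), but it was 1.29 and passed without WT replicate 2 or without WT replicate 4. It was 0.64 and did not pass without WT replicate 1, and it passed with TPM, quantile normalization and voom at 1.24, 1.12 and 1.01 and under the adipocyte scaling at 2.65. Within the 86 lincRNAs at 2 FPKM or more in both groups, the median coefficient of variation between libraries was 12.4% in KLF10AKO and 13.6% in WT.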

How the data were processed

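Poly(A)-selected RNA of HFD-fed iWAT was sequenced in 4 KLF10AKO and 4 WT libraries. Per the submitters' processing notes, mm10 was the genome, and the tools were HISAT2 2.0.5, edgeR 3.22.5 and featureCounts 1.5.0-p3. Not given in the sources used here are the role of each tool, the annotation and the strand setting. The authors deposited FPKM. Multiplied by gene length, 100% of these values were whole reads within 0.01 of a read, in units that differ by library. The reads so recovered came to 0.901 to 0.939 times the library size behind the FPKM in KLF10AKO and 1.05 to 1.09 times in WT, so those sizes include a scaling between samples.

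The model was limma 3.58.1 in R 4.3.3 (lmFit, eBayes with trend) on log2(FPKM + 0.5) of 16012 genes with a mean of at least 0.5 FPKM, two-sided, Benjamini-Hochberg adjusted over all of them at 0.05. It was also run on reads simulated from the WT means, with a small share of genes changed, equally up and down. That run had no shift in cell content, so it does not test the scaling of these libraries. Single lincRNAs also had exact two-sided permutation tests. Counting ratios and floors of 3 reads use the authors' implied library sizes at 95% confidence. The lincRNAs, gene lists, patterns and tests were chosen with earlier results of these data known. Values in every library were given for the 6 lincRNAs of highest mean, the 6 largest rises and falls that passed without overlap, the muscle pattern, and members of the lists of snoRNA hosts, microRNA hosts and other studied noncoding RNAs. Alternatives were no filter, a minimum of 2 FPKM, pseudocounts of 1 and 0.1, TPM, quantile normalization, scaling to adipocyte markers, a replicate block, voom on recovered reads, leaving out each library, KLF10AKO replicate 4 alone (assumed to vary like WT) and other pattern limits. After seeing the data, WT replicate 1 and KLF10AKO replicate 4 were left out together, and lincRNAs sharing exon bases were left out. Of the 160 lincRNAs, 159 matched GENCODE M21 by identifier and 154 had the same coordinates. Sequences are from RefSeq (GRCm38.p6).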

Additional observations from a re-analysis of the deposited data

Results flagged for a closer look

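In 7 of 98 groups of 4 libraries checked, 1 library stood far from the other 3 by Dixon's criterion, which chance meets in about 1 group in 20. Gm20506 had 0.102 FPKM in WT replicate 2 and 0 in the other WT libraries, a single read. A330094K24Rik had 0.331 FPKM in KLF10AKO replicate 4, against 1.29 to 1.39 FPKM in the other knockouts. Gm26917 had 50.04 FPKM in WT replicate 1, against 7.91 to 12.1 FPKM in the other WT libraries. 2900097C17Rik had 37.8 FPKM in KLF10AKO replicate 3, against 33.5 to 34.1 FPKM in the other knockouts, and 42.5 FPKM in WT replicate 2, against 33.8 to 34.4 FPKM in the other WT libraries. Gm11707 had 3.83 FPKM in KLF10AKO replicate 3, against 5.67 to 6.02 FPKM in the other knockouts. Lsmem2 had 22.6 FPKM in KLF10AKO replicate 4, against 14.4 to 15.2 FPKM in the other knockouts.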

How the results depend on the processing

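On the authors' scale, 76 lincRNAs were higher and 51 lower in KLF10AKO. The counts were 84 and 40 with TPM, 69 and 63 with quantile normalization, 64 and 41 with KLF10AKO replicate 4 alone, and 75 and 50 with voom on the recovered reads, which called 11733 of all genes. Leaving out 1 library gave 73 to 77 higher and 46 to 50 lower. Scaling to adipocyte markers gave 147 higher and 0 lower. Restricting the set to 2 FPKM or more in both groups leaves fewer lincRNAs and gave 27 higher and 29 lower. The muscle pattern held 6 lincRNAs with a limit of 0.5 and 1 with a limit of 2. Replicate numbers did not pair the samples (correlation of deviations 0.003 to 0.031), and a replicate block gave 77 higher and 50 lower, with 124 of 127 calls kept.

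Signs turned as follows. The adipocyte scaling subtracts a single value per library from all genes, so every difference moved up by the same 1.63. Which signs turned under it follows from the size of the difference on the authors' scale. The cause of the other turns was not tested. Under the adipocyte scaling the values became 0.88 for Neat1, 1.28 for Malat1, 0.060 for AC114585.1, 0.11 for both Gm35552 and B230208H11Rik, 0.25 for A330094K24Rik, 0.80 for Snhg18, 0.61 for Bvht, 1.40 for Lncbate1, 1.58 for 2900097C17Rik, 0.92 for 1810058I24Rik, 0.99 for Tmem250-ps, 0.83 for Gm26532, 1.51 for 6720427I07Rik, 1.46 for Snhg10, 0.12 for 1700047G03Rik and 0.75 for Klf10. With KLF10AKO replicate 4 alone they were -0.37 for 2310040G24Rik, -0.93 for 4930429F24Rik and 0.030 for 6720427I07Rik. With TPM they were 0.15 for 2900097C17Rik, 0.079 for 6720427I07Rik and 0.016 for Snhg10, and with quantile normalization -0.14 for E130102H24Rik, -0.17 for Dubr and -0.0080 for 2900076A07Rik. Without WT replicate 1 and KLF10AKO replicate 4, E130102H24Rik was -0.071. With 1 library left out, E130102H24Rik ran from -0.091 to 0.101, 4930429F24Rik from -0.044 to 0.77, 2900097C17Rik from -0.095 to 0.024 and Gm26917 from -0.15 to 0.71. These 4 lincRNAs had not passed on the authors' scale.

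Depth limits the least read lincRNAs most: over the 8 libraries they had from 93 reads, with a median of 758.5.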
